A study of Saccharomyces cerevisiae with 2 samples.

Results

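GCN4 and 39 genes for the synthesis of arginine, histidine, the branched-chain amino acids, lysine and the aromatic amino acids were followed in 2 strains of Saccharomyces cerevisiae, the budding yeast. The 40 genes were chosen by symbol, from the pathways that the transcription factor Gcn4 is known to control. All 40 were found, among 5659 genes listed in the deposited tables, and all 40 passed the filter of a mean RPKM of at least 1 that left 5532 genes. RPKM is reads per kilobase of listed gene length and per M reads (M, mega) of the library.

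The groups were ZGR3, a mutant derived from ZTW1, and ZTW1 itself, a wild type bioethanol strain, with 1 library each. No source used here gives the altered gene of ZGR3 or the ploidy of the strains. Cultures of both strains, 25 mL in volume and started at an optical density of 0.05, grew in YPD (yeast extract, peptone and 20 g/L glucose), and cells were taken on entry into early stationary phase. Poly(A) RNA was sequenced, and 4.61 M reads were assigned to genes in ZGR3 and 4.66 M in ZTW1. With 1 library per strain there is no replicate check and no p-value. The 95% counting intervals, exact and based on Clopper-Pearson limits, cover counting error only and compare these libraries, not the strains.

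As background, Gcn4 is a basic leucine zipper activator that binds upstream of amino acid synthesis genes and raises their transcription when amino acids are short, a response called general amino acid control. Its amount is set mainly by translation: short open reading frames in the GCN4 leader keep ribosomes from the main frame until the kinase Gcn2 senses uncharged tRNA and phosphorylates the initiation factor eIF2. A transcript count of GCN4 is therefore not a measure of Gcn4 protein. Several pathways also have their own regulators, such as the ArgR and Mcm1 complex for arginine, Leu3 for leucine and Lys14 for lysine.

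The amino acid synthesis genes were close to each other in the 2 libraries, with single enzymes apart in both directions. Arginine synthesis held both extremes, ARG1 (argininosuccinate synthetase) at 1.62-fold higher in ZGR3 and ARG4 (argininosuccinate lyase), the step after it, at 1.64-fold lower. LYS9 and LYS1, the last steps of lysine synthesis, were lower in ZGR3, as was LEU2, while the transaminase gene BAT2 was higher. GCN4 itself differed by less than its counting error. The RNA came from whole cultures, so less transcript per cell and fewer cells with the transcript cannot be told apart.

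GCN4 (gene ID 856709, YEL009C, chromosome V) had 9989 reads in ZGR3 and 10172 in ZTW1, or 2561 RPKM in ZGR3 and 2580 in ZTW1. The fold of read shares was 0.993 with a counting interval of 0.966 to 1.02, so these reads resolved no difference. The transcript ranked 51 of 5659 genes by RPKM in ZGR3 and 55 in ZTW1. It held 25.4% of the 40 genes' reads in ZGR3 and 26.3% in ZTW1. The highest enzyme gene, ILV6, lay at 771 RPKM in ZGR3 and 790 in ZTW1, so GCN4 stood above every other gene of the set in both libraries.

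**Figure D1:**
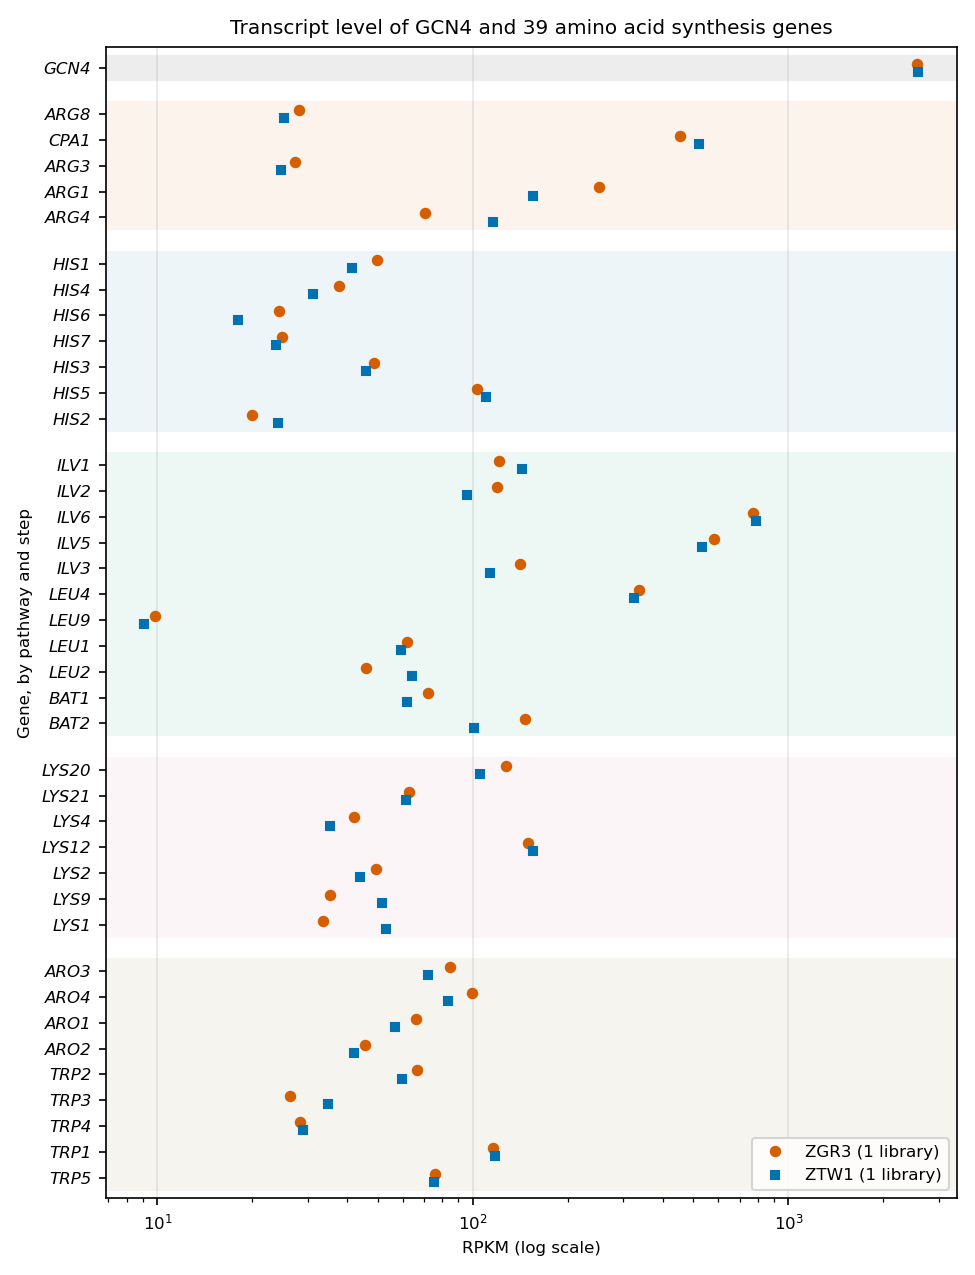
RPKM (log axis) of GCN4 and the 39 enzyme genes in the ZGR3 library (circles) and the ZTW1 library (squares), by pathway and in the order of the steps. GCN4 lies at 2561 RPKM in ZGR3 and 2580 in ZTW1, and LEU9 is lowest at 9.80 RPKM in ZGR3 and 9.10 in ZTW1.

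The enzyme genes ranged over nearly the same levels in both libraries. Their median was 66.0 RPKM in ZGR3 and 61.5 in ZTW1, against a median over all genes tested of 31.8 in ZGR3 and 32.6 in ZTW1. Of the 40 genes, 32 lay above that median in ZGR3 and 32 in ZTW1. The order of the 40 levels was alike as well, with Spearman's rho of 0.961 across genes, which are not independent replicates and share the library and the coding length. Together the 40 genes took 0.854% of reads in ZGR3 (0.846 to 0.863) and 0.829% in ZTW1 (0.821 to 0.838), a summed fold of 1.03 (1.02 to 1.04).

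Of the 40 genes, 0 were at least 2-fold apart on the log2(RPKM + 1) scale, where 2.46% of all genes tested were, 0.542% higher and 1.92% lower. At least 1.5-fold apart were 3 genes, 1 higher (ARG1) and 2 lower (ARG4 and LYS1) in ZGR3, against 11.0% of all genes, 3.63% higher and 7.39% lower. At least 0.32 apart on the log2 scale were 8, with 3 higher and 5 lower, against 32.0% of all genes, 12.8% higher and 19.2% lower. The counting interval of the fold excluded 1 for 20 genes, 13 above and 7 below, where 37.7% of all genes had such an interval, 17.9% above and 19.8% below. Intervals narrow with depth, and among the 4062 genes with at least as many reads as the lowest of the 40 in each library 44.1% excluded 1, 22.6% above and 21.5% below. Of these 4062 genes, 37 were at least 2-fold apart, and 112 were at least 1.5-fold higher and 158 lower. At least 0.32 apart on the log2 scale were 474 higher and 556 lower. The count past each fold rule was thus no larger than the share of all genes tested would give. Against the 4062 genes the 1.5-fold count was about the same share. The count of intervals was a little above its background share. In what follows, a gene is called level where the interval of its fold held 1, which does not show that its levels were equal.

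The median log2 ratio of the 40 genes was 0.09, with 26 above 0 and 14 below, against −0.02 over all genes tested, of which 48.0% lay above 0. The median distance from 0 was 0.21 for the 40 genes and 0.21 for all genes. Among the 4062 genes with at least as many reads as the lowest of the 40, the median log2 ratio was 0.01. Of those genes 51.7% lay above 0, and their median distance from 0 was 0.19. By pathway the medians were 0.14 for arginine, 0.08 for histidine, 0.10 for the branched-chain amino acids, 0.03 for lysine and 0.11 for the aromatic amino acids. The range of each pathway is set by its lowest and highest gene and depends on how many genes it holds. Arginine genes ran from −0.70 to 0.69, branched-chain genes from −0.48 to 0.53 and lysine genes from −0.65 to 0.27, while histidine genes ran from −0.25 to 0.41 and aromatic genes from −0.38 to 0.25.

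**Figure D2:**
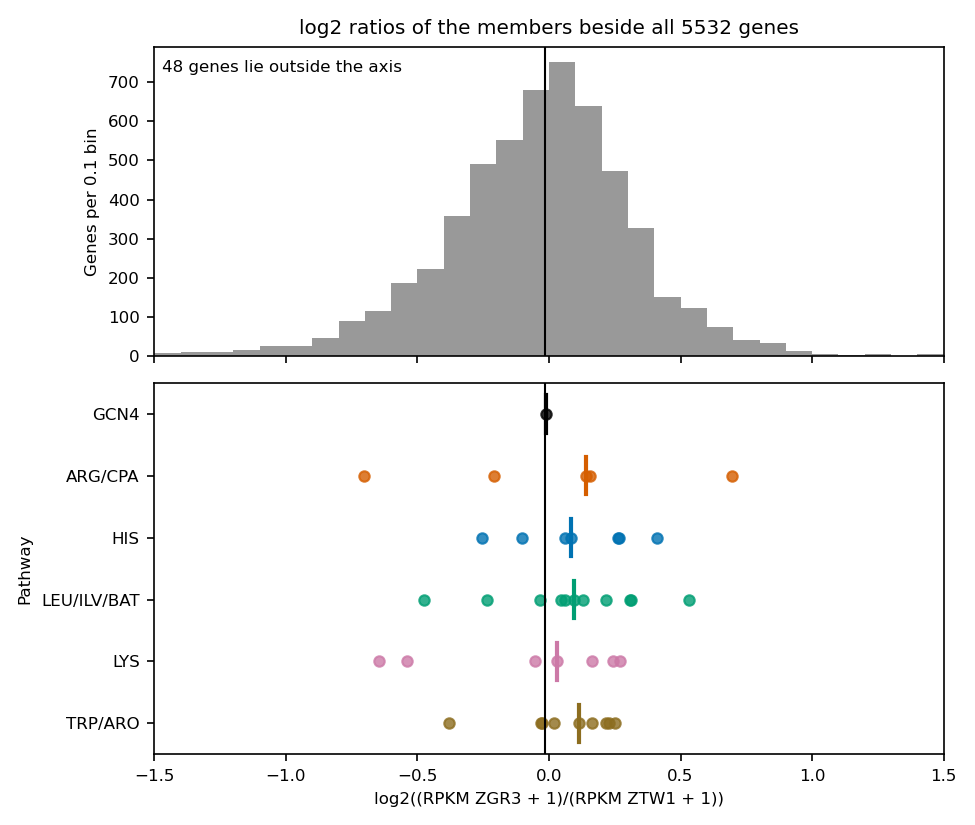
Top, histogram of the log2((RPKM ZGR3 + 1)/(RPKM ZTW1 + 1)) of 5532 genes with their median (line at −0.02). Bottom, each member as a point on the same axis by pathway, with the pathway median as a short line; all 40 members lie between −0.70 and 0.69.

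In arginine synthesis, 5 genes were measured, and the genes before the last steps were level or a little lower. ARG8, the acetylornithine aminotransferase gene, had 165 reads in ZGR3 and 149 in ZTW1, and ARG3, the ornithine carbamoyltransferase gene, 128 in ZGR3 and 117 in ZTW1. Both intervals held 1 (0.892 to 1.41 for ARG8 and 0.854 to 1.43 for ARG3). ARG3 was the lowest of the 5 genes, at 27.3 RPKM in ZGR3 and 24.7 in ZTW1. CPA1, which encodes the small subunit of the carbamoyl phosphate synthetase of this pathway and whose translation is blocked by an arginine-sensing leader peptide, was the highest. It had 2574 reads (452 RPKM) in ZGR3 and 3010 reads (522 RPKM) in ZTW1, 1.16-fold lower in ZGR3 (1.10 to 1.22).

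ARG1 (gene ID 854096, YOL058W, chromosome XV) joins citrulline and aspartate. It had 1461 reads and 251 RPKM in ZGR3, against 911 reads and 155 RPKM in ZTW1, 1.62-fold higher in ZGR3 (1.49 to 1.76). Among all genes tested, 2.21% had a log2 ratio at least as high. ARG4 (gene ID 856411, YHR018C, chromosome VIII) cleaves the product of that reaction to arginine and fumarate. It had 453 reads and 70.6 RPKM in ZGR3, against 749 reads and 115 RPKM in ZTW1, 1.64-fold lower in ZGR3 (1.45 to 1.84). Of all genes, 4.83% had a log2 ratio at least as low. The ratio of ARG1 to ARG4 RPKM was 3.55 in ZGR3 (3.20 to 3.96) and 1.34 in ZTW1 (1.22 to 1.48). This pair was chosen after the values were seen and joins the highest and lowest log2 ratios of the 40 genes. A shift of its ratio between the libraries therefore follows from the choice.

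Other genes of arginine metabolism, with 6 reported, had a median log2 ratio of −0.24, with 2 above 0 and 4 below, and a median of −0.07 over the 5 with a mean RPKM of at least 10. The counting interval lay above 1 for 1 gene and below 1 for 2, against 17.9% above and 19.8% below over all genes. ARG5,6, which encodes the precursor of the enzymes that phosphorylate and reduce acetylglutamate, was the one above, with 945 reads in ZGR3 and 717 in ZTW1 (1.33-fold higher, 1.21 to 1.47). ARG7, the ornithine acetyltransferase gene, had 128 reads in ZGR3 and 175 in ZTW1 (1.35-fold lower, 1.07 to 1.71). The arginase gene CAR1, which breaks arginine down, was the gene of this list past 2-fold, with 278 reads in ZGR3 and 585 in ZTW1 (2.08-fold lower, 1.80 to 2.41). CAR2, the next catabolic step, had 953 reads in ZGR3 and 1011 in ZTW1, with an interval of 0.871 to 1.04. The gene with the fewest reads was ORT1, the mitochondrial ornithine exporter, at 14 in ZGR3 and 23 in ZTW1, too few to resolve its log2 ratio of −0.57 (0.293 to 1.248 as a fold).

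**Figure D3:**
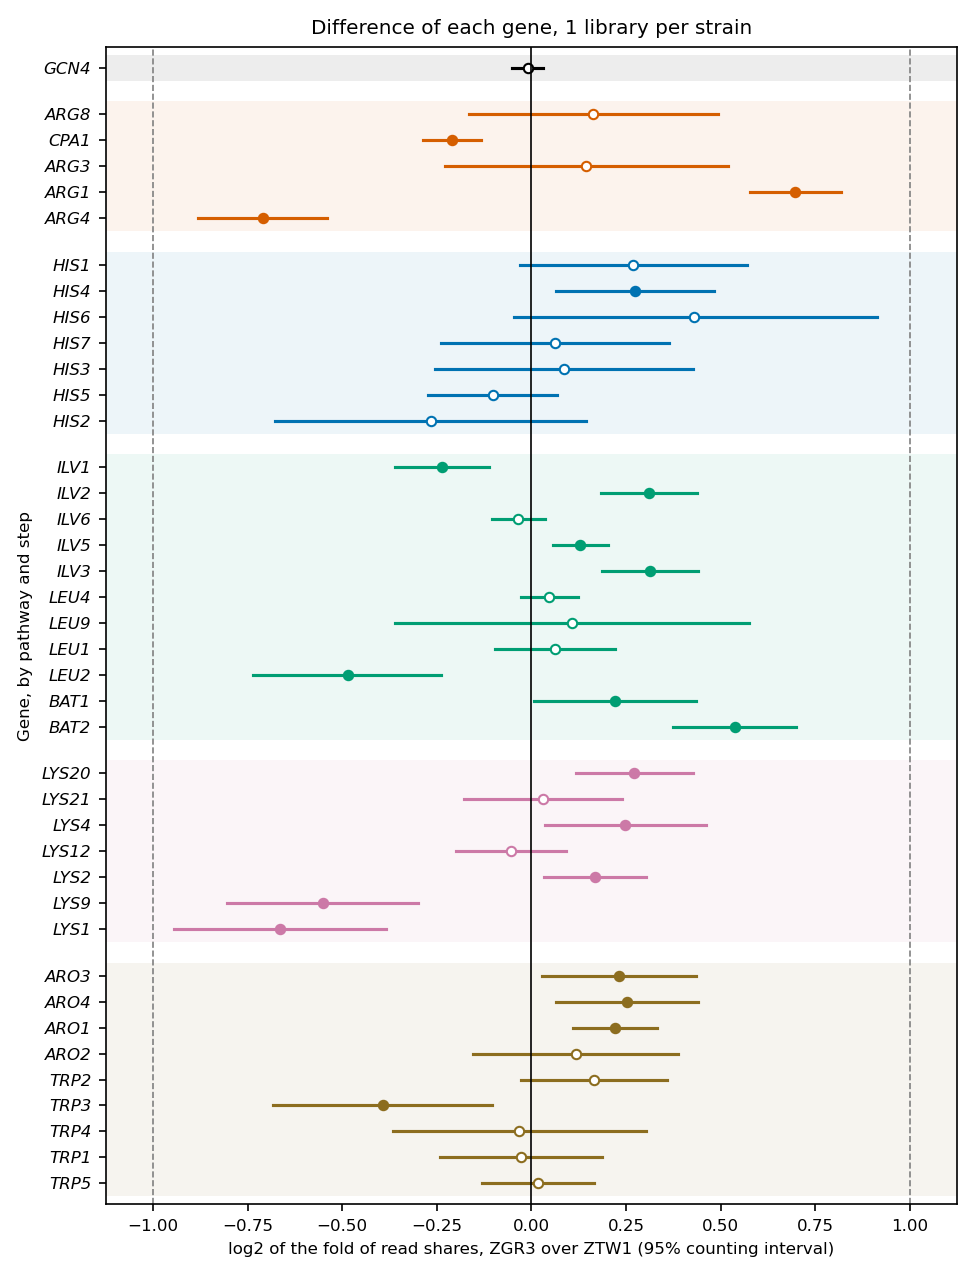
log2 of the fold of read shares, ZGR3 over ZTW1, of each gene with its 95% counting interval, by pathway and step; filled points have an interval that excludes 0 and dashed lines mark 2-fold. ARG1 and BAT2 lie furthest to the right, and ARG4, LYS1, LYS9 and LEU2 furthest to the left.

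In histidine synthesis, a single branch from phosphoribosyl pyrophosphate, 7 genes were measured at 20.0 to 103 RPKM in ZGR3 and 18.0 to 110 RPKM in ZTW1. HIS4, a multifunctional enzyme that acts early and at the end of the branch, was the 1 gene whose interval excluded 1, with 415 reads in ZGR3 and 347 in ZTW1 (1.21-fold higher, 1.05 to 1.40). The isomerase gene HIS6 had the highest log2 ratio of the pathway, 0.41, but only 88 reads in ZGR3 and 66 in ZTW1, with an interval of 0.967 to 1.88. HIS1, which opens the pathway and is inhibited by histidine, had 205 reads in ZGR3 and 172 in ZTW1 (0.979 to 1.48). All 3 were above 0, and the intervals of HIS6 and HIS1 held 1.

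The remaining histidine genes lay near or below 0, each with an interval that held 1. HIS7, the glutamine amidotransferase and cyclase gene, was nearest to 0 with 190 reads in ZGR3 and 184 in ZTW1 (0.848 to 1.29). The dehydratase gene HIS3 had 149 reads in ZGR3 and 142 in ZTW1. HIS5, the aminotransferase gene and the highest of the pathway, had 549 reads (103 RPKM) in ZGR3 and 596 reads (110 RPKM) in ZTW1 (0.828 to 1.05). HIS2, the phosphatase gene, had 93 reads (20.0 RPKM) in ZGR3 and 113 reads (24.1 RPKM) in ZTW1 (0.626 to 1.10). Over the 7 genes the summed reads were 1689 in ZGR3 and 1620 in ZTW1, a fold of 1.05 (0.984 to 1.13).

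The branched-chain pathway, with 11 genes measured, took the most reads of the 5 pathways, 0.320% in ZGR3 (0.314 to 0.325) and 0.303% in ZTW1 (0.298 to 0.308). Isoleucine and valine are made by shared mitochondrial enzymes, and leucine branches off the valine pathway. The shared enzymes were slightly higher in ZGR3. ILV2, the catalytic subunit of acetolactate synthase, had 1132 reads (119 RPKM) in ZGR3 and 923 reads (95.9 RPKM) in ZTW1 (1.24-fold higher, 1.14 to 1.35). ILV3, the dihydroxyacid dehydratase gene, had 1139 reads in ZGR3 and 927 in ZTW1 (1.24-fold higher, 1.14 to 1.36), and ILV5, the reductoisomerase gene, 3181 in ZGR3 and 2941 in ZTW1 (1.09-fold higher, 1.04 to 1.15).

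ILV6 and ILV1 did not share this direction. ILV6 encodes the regulatory subunit that makes acetolactate synthase sensitive to valine, and was nearest to 0 in the pathway with 3307 reads in ZGR3 and 3425 in ZTW1 (0.930 to 1.02). The ratio of ILV6 to ILV2 RPKM was accordingly 6.48 in ZGR3 (6.06 to 6.94) and 8.24 in ZTW1 (7.66 to 8.87), so the regulatory transcript was the more abundant in both. ILV1, threonine deaminase, which feeds isoleucine synthesis alone, had 966 reads (121 RPKM) in ZGR3 and 1151 reads (143 RPKM) in ZTW1 (1.18-fold lower, 1.08 to 1.29).

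BAT1 and BAT2 encode the mitochondrial and cytosolic branched-chain transaminases. BAT2 (gene ID 853613, YJR148W, chromosome X) had 762 reads and 146 RPKM in ZGR3, against 531 reads and 101 RPKM in ZTW1, and was furthest from 0 in the pathway at 1.45-fold higher (1.30 to 1.62). BAT1 had 392 reads (71.9 RPKM) in ZGR3 and 340 reads (61.7 RPKM) in ZTW1, with an interval just above 1 (1.17-fold higher, 1.01 to 1.35), and was at a log2 ratio of −0.28 relative to its chromosome neighbours. In both libraries the cytosolic form was the higher. The ratio of BAT1 to BAT2 was 0.492 in ZGR3 (0.435 to 0.557) and 0.613 in ZTW1 (0.533 to 0.703), and the fold between these ratios was 0.803 (0.667 to 0.969).

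On the leucine branch, LEU4 was high and level, LEU9 low and level, and LEU2 lower in ZGR3. LEU4, the main isopropylmalate synthase, had 2873 reads (335 RPKM) in ZGR3 and 2812 reads (324 RPKM) in ZTW1 (0.980 to 1.09). Its paralog LEU9 was the lowest of all 40 genes in RPKM, with 82 reads in ZGR3 and 77 in ZTW1, so LEU4 stood 34.2 times above it in ZGR3 (27.4 to 43.1) and 35.6 times in ZTW1 (28.4 to 45.3). LEU1, the isomerase gene, had 667 reads in ZGR3 and 646 in ZTW1 (0.935 to 1.17). LEU2 (gene ID 850342, YCL018W, chromosome III), isopropylmalate dehydrogenase, had 231 reads and 45.8 RPKM in ZGR3, against 327 reads and 64.1 RPKM in ZTW1, 1.40-fold lower in ZGR3 (1.18 to 1.66).

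Of 5 further genes tied to the branched-chain pathway, with a median log2 ratio of −0.10 (0.03 where the mean RPKM was at least 10), CHA1, a catabolic serine and threonine deaminase, was the 1 with an interval above 1, with 2723 reads in ZGR3 and 1674 in ZTW1 (1.64-fold higher, 1.55 to 1.75). MMF1, a mitochondrial protein needed for isoleucine supply, was the 1 with an interval below 1, and by little (1.07-fold lower, 1.0003 to 1.15). Over all genes 17.9% had an interval above 1 and 19.8% below. LEU3, the activator of leucine genes, had 260 reads in ZGR3 and 257 in ZTW1 (0.858 to 1.22). OAC1, a mitochondrial carrier and Leu3 target, was furthest below 0 with a log2 ratio of −0.58, from 21 reads in ZGR3 and 34 in ZTW1 (0.344 to 1.11 as a fold). Its neighbours on chromosome XI had a median log2 ratio of −0.30, and OAC1 was at −0.28 relative to them. The part of this position in its log2 ratio was not tested.

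Lysine synthesis separated by step. Fungi make lysine through aminoadipate, and the homocitrate synthases LYS20 and LYS21 open the route. LYS20 had 757 reads (128 RPKM) in ZGR3 and 634 reads (106 RPKM) in ZTW1 (1.21-fold higher, 1.08 to 1.34). LYS21 was nearest to 0, with 383 reads in ZGR3 and 379 in ZTW1 (0.884 to 1.18). The ratio of LYS20 to LYS21 RPKM was 2.03 in ZGR3 (1.79 to 2.30) and 1.72 in ZTW1 (1.51 to 1.96), a fold between the ratios of 1.18 with an interval that held 1 (0.986 to 1.42). Reads covered 75.3% of the LYS20 length in ZGR3 and 75.2% in ZTW1, and 72.1% of LYS21 in ZGR3 and 72.7% in ZTW1. All other members were covered over at least 81.8% in ZGR3 and 82.3% in ZTW1. Only uniquely assigned reads were counted, and the sequence similarity of LYS20 and LYS21 was not computed. The cause of their lower coverage was not tested, and the levels of this pair are uncertain.

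The middle of the lysine pathway was level or slightly higher. LYS4, homoaconitase, had 403 reads in ZGR3 and 343 in ZTW1 (1.19-fold higher, 1.03 to 1.38). LYS12, homoisocitrate dehydrogenase and the highest of the pathway at 149 RPKM in ZGR3 and 155 in ZTW1, had 768 reads in ZGR3 and 806 in ZTW1 (0.872 to 1.06). LYS2, the large aminoadipate reductase, had 952 reads in ZGR3 and 857 in ZTW1 (1.12-fold higher, 1.02 to 1.23).

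Both saccharopine dehydrogenase genes, which end the route, were lower in ZGR3. LYS9 (gene ID 855786, YNR050C, chromosome XIV) had 218 reads and 35.3 RPKM in ZGR3, against 323 reads and 51.7 RPKM in ZTW1, 1.47-fold lower in ZGR3 (1.23 to 1.75). LYS1 (gene ID 854852, YIR034C, chromosome IX), whose enzyme releases lysine, had 173 reads and 33.4 RPKM in ZGR3, against 277 reads and 53.0 RPKM in ZTW1, 1.58-fold lower in ZGR3 (1.30 to 1.93). LYS1 was the lowest of the pathway in ZGR3, while LYS4 was the lowest in ZTW1 at 35.3 RPKM. LYS14, the activator of these genes, had 240 reads in ZGR3 and 281 in ZTW1, with an interval that held 1 (0.724 to 1.03). Summed over the 7 lysine genes, reads were 3654 in ZGR3 and 3619 in ZTW1, a fold of 1.02 (0.975 to 1.07), so the lower end steps were not visible in the sum.

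In aromatic synthesis, 9 genes were measured, and ARO3, ARO4 and ARO1 of the shikimate route were higher in ZGR3, TRP3 was lower and the other 5 were level. ARO3 and ARO4 encode the entry enzymes, Aro3 inhibited by phenylalanine and Aro4 by tyrosine. ARO3 had 434 reads in ZGR3 and 374 in ZTW1 (1.17-fold higher, 1.02 to 1.35), and ARO4 510 in ZGR3 and 433 in ZTW1 (1.19-fold higher, 1.05 to 1.36). Their RPKM ratio, ARO3 over ARO4, was 0.851 in ZGR3 (0.747 to 0.969) and 0.864 in ZTW1 (0.750 to 0.994), and the fold between the ratios had an interval that held 1 (0.812 to 1.20). ARO1, which encodes the pentafunctional arom protein, had 1451 reads in ZGR3 and 1259 in ZTW1 (1.17-fold higher, 1.08 to 1.26). ARO2, chorismate synthase, had 237 reads in ZGR3 and 221 in ZTW1 (0.899 to 1.31).

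TRP2 and TRP3 form anthranilate synthase, the first step from chorismate to tryptophan. TRP2 had 468 reads (66.6 RPKM) in ZGR3 and 422 reads (59.4 RPKM) in ZTW1 (0.981 to 1.28). TRP3 (gene ID 853669, YKL211C, chromosome XI) was the 1 gene of the pathway lower in ZGR3, with 177 reads and 26.4 RPKM in ZGR3, against 235 reads and 34.7 RPKM in ZTW1 (1.31-fold lower, 1.08 to 1.61). Relative to its chromosome neighbours, which were lower too, TRP3 was at a log2 ratio of 0.01, and at −0.14 relative to the median of chromosome XI, and the part of this position in its lower level and in its ratio to TRP2 was not tested. Its reads covered 88.7% of its length in ZGR3 and 98.9% in ZTW1. The ratio of TRP2 to TRP3 was 2.52 in ZGR3 (2.12 to 3.02) and 1.71 in ZTW1 (1.46 to 2.02). TRP4, the phosphoribosyl transferase gene, had 149 reads in ZGR3 and 154 in ZTW1, and TRP1, the isomerase gene and highest of the pathway at 115 RPKM in ZGR3 and 118 in ZTW1, had 359 reads in ZGR3 and 370 in ZTW1. TRP5, tryptophan synthase, was nearest to 0, with 745 reads in ZGR3 and 744 in ZTW1 (0.913 to 1.12). For TRP1, TRP4 and TRP5 no difference was detectable at this depth.

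Among 7 other aromatic genes, with a median log2 ratio of −0.12, the interval lay above 1 for 1 and below 1 for 2, against 17.9% above and 19.8% below over all genes. Relative to neighbours their median was 0.07. ARO9, the aromatic aminotransferase that breaks down tryptophan, was higher, with 1704 reads in ZGR3 and 1069 in ZTW1 (1.61-fold, 1.49 to 1.74), and lies where its neighbours were higher too (median log2 ratio 0.40). ARO8, the biosynthetic aminotransferase, had 637 reads in ZGR3 and 834 in ZTW1 (1.29-fold lower, 1.17 to 1.44), and the decarboxylase gene ARO10 2971 in ZGR3 and 3547 in ZTW1 (1.18-fold lower, 1.12 to 1.24). ARO7, chorismate mutase, had the highest log2 ratio of the list, 0.82, from 22 reads in ZGR3 and 11 in ZTW1, with an interval of 0.940 to 4.62 as a fold.

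**Figure D4:**
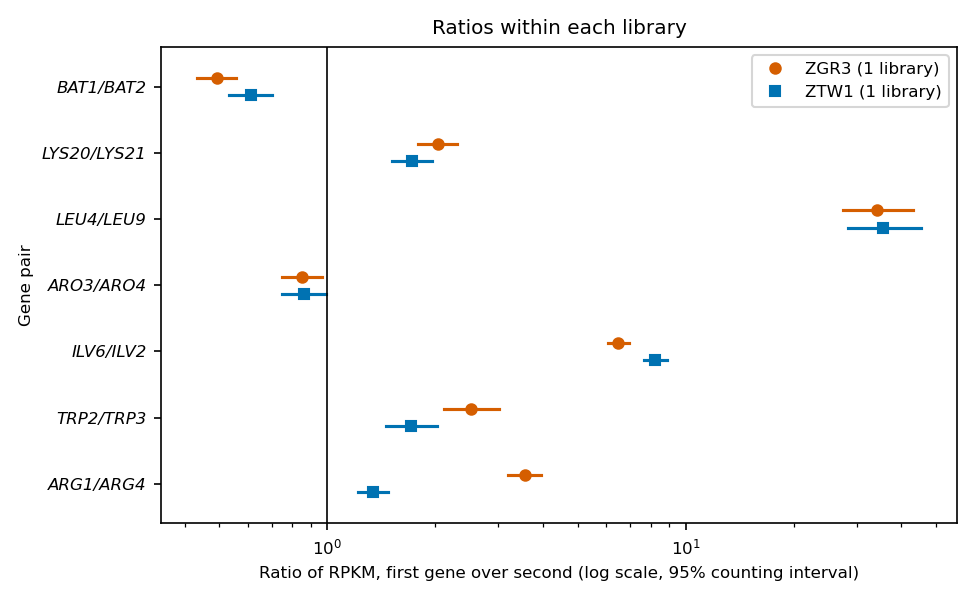
Ratio of RPKM between the genes of 7 pairs within each library (log axis), with 95% counting intervals; ZGR3 circles above, ZTW1 squares below. The first 4 pairs are isozymes and the others were added after their values were seen. ARG1/ARG4, at 3.55 in ZGR3 and 1.34 in ZTW1, joins the members with the highest and lowest log2 ratio. It stands furthest apart between the libraries by that choice.

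Of the 4 isozyme pairs, the ratio differed between the libraries beyond counting error for 1, BAT1 and BAT2. The fold between the ratios, ZGR3 over ZTW1, was also computed for 2 subunit pairs chosen after their values were seen. It was 0.787 for ILV6 over ILV2 (0.712 to 0.870) and 1.47 for TRP2 over TRP3 (1.16 to 1.88). Because these pairs were picked with their values known, how many of them shifted carries no weight. Relative to its chromosome neighbours TRP3 was at a log2 ratio of 0.01, and the part of position in its ratio to TRP2 was not tested.

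A pair of members, TRP3 and BAT1, lay among chromosome neighbours whose median was far from 0. The 23 nearest neighbours of TRP3, up to 12 on each side in gene order, had a median log2 ratio of −0.39, and TRP3 itself was at −0.38. For BAT1, near the right end of chromosome VIII, 17 neighbours had a median of 0.49 and BAT1 was at 0.22. Relative to these neighbours TRP3 was at 0.01 and BAT1 at −0.28, and the part of the neighbourhood in either result was not tested. For the other 38 members the neighbours' median lay between −0.15 and 0.12, including ARG1 (0.12), BAT2 (0.01), LEU2 (−0.0041), LYS9 (−0.01), LYS1 (0.01) and ARG4 (−0.06), which stayed far from 0 relative to their neighbours (ARG1 at 0.58 and ARG4 at −0.64). Across the 40 members the log2 ratio and the neighbours' median had a Spearman's rho of 0.06, against 0.13 over 5526 genes, where neighbours share windows.

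**Figure D5:**
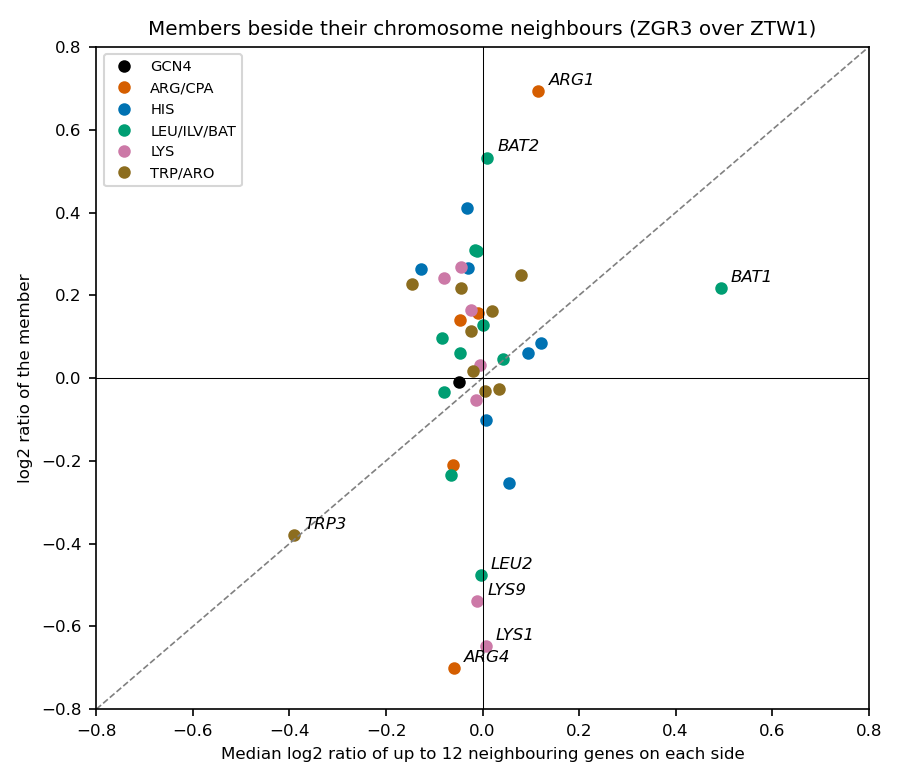
log2 ratio (ZGR3 over ZTW1) of each member against the median log2 ratio of up to 12 neighbouring genes on each side; the dashed line marks equality. TRP3 (−0.38, neighbours −0.39) and BAT1 (0.22, neighbours 0.49) are the members with neighbours far from 0, and ARG1, BAT2, LEU2, LYS9, LYS1 and ARG4 lie away from neighbours near 0.

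Of 14 general control genes, which set Gcn4 activity, 10 were above 0, with a median log2 ratio of 0.16. The interval lay above 1 for 3 and below 1 for 2, against 17.9% above and 19.8% below over all genes, so the count was near the background. GCN2, the kinase, had 546 reads in ZGR3 and 491 in ZTW1 (0.993 to 1.27), and GCN1, its large activator, 2037 in ZGR3 and 1620 in ZTW1 (1.27-fold higher, 1.19 to 1.36). PCL5, a cyclin that targets Gcn4 for degradation and is itself a Gcn4 target, had 389 reads in ZGR3 and 543 in ZTW1 (1.38-fold lower, 1.21 to 1.58). ASC1, a ribosomal protein also known as Cpc2 that represses Gcn4 targets when amino acids are plentiful, was furthest from 0, with 796 reads in ZGR3 and 1352 in ZTW1 (1.68-fold lower, 1.54 to 1.84). Of 9 pathway regulators, with a median log2 ratio of 0.03, MCM1, the partner of the ArgR proteins, was furthest from 0 and the 1 whose interval excluded 1, with 460 reads in ZGR3 and 349 in ZTW1 (1.33-fold higher, 1.16 to 1.54). ARG80, an ArgR protein gene, had 129 reads in ZGR3 and 107 in ZTW1 (0.936 to 1.59).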

How the data were processed

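Poly(A) RNA of 1 ZGR3 and 1 ZTW1 library was measured. Each deposited table lists, per the file headers, how many reads were uniquely assigned to a gene (a count), its RPKM and the percent of its length under reads. Counts summed to the totals in the headers, and reads, length and total gave back the deposited RPKM of all 5659 genes within a relative 1e-06. All 5659 lengths were multiples of 3, so they are coding lengths. Per the submitters' processing notes, sacCer2 was the genome build; no source used here gives the aligner, filters or strand handling, so antisense reads cannot be told apart. Genes absent from a table were set to 0.

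Names and gene order came from RefSeq's table of assembly R64, in which 5653 gene IDs were found and 6 were not. The builds differ, so R64 coordinates served only to order genes and to find overlaps. No sequences or promoter motifs were used here. No member overlapped another gene of that table.

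Ratios were computed as log2((RPKM ZGR3 + 1)/(RPKM ZTW1 + 1)) where the mean RPKM was at least 1 (5532 genes), which understates differences of low genes. Folds of read shares have exact 95% intervals from Clopper-Pearson limits on the binomial share; ratios of ratios have exact conditional limits. The rule of size was 2-fold. No test was possible, and reads without molecular identifiers make these counting limits only. Members and lists were chosen with earlier results of these data known. All members were named, and of 7 context lists at least the 2 genes furthest from 0, in the text or the closing observations; 1 further listed gene is not reported here.

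Alternatives were other pseudocounts (0.1 and 5 RPKM), filters (none, or 10 RPKM), units and size rules, scaling by edgeR 4.0.16 (trimmed mean of M values) or DESeq2 1.42.0 (median of ratios), and corrections for coding length (running median of 401 genes) or position. The steps were tested on simulated data. Computations used R 4.3.3 and, under Python 3.11.15, scipy 1.17.1, pandas 2.3.3, numpy 2.4.6 and matplotlib 3.10.9.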

Additional observations from a re-analysis of the deposited data

How the results depend on the processing

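No paired analysis was possible because each strain has 1 library. The median log2 ratio of the 40 genes stayed above 0 under the 12 alternatives, between 0.06 and 0.11, and the median of all genes moved by at most 0.02. The number of members at least 2-fold apart stayed at 0 under the 11 alternatives that keep that rule. It was 3 with a 1.5-fold rule, 8 with a rule of 0.32 on the log2 scale and 20 when members with a counting interval that excludes 1 were counted. Among pairs of genes, 1 of 4 isozyme ratios differed beyond counting error, and 4 of 7 with the pairs added after seeing the data. The added pairs were picked with their values known, so the larger count carries no weight. The histidine median was −0.03 relative to neighbours, against 0.08. Medians of the other branched-chain genes (−0.18 to 0.03), other aromatic genes (−0.20 to 0.07) and pathway regulators (−0.02 to 0.08) lay on both sides of 0 across alternatives. Of single members, 8 changed sign under at least 1 alternative, and 32 under none. GCN4 (up to 0.04), ILV6 (up to 0.05), BAT1 (−0.28 relative to neighbours) and TRP3 (0.01 relative to neighbours) were the 4 that did so with a value outside the counting interval of their main value; the cause was not tested. Depth limits genes with few reads most, such as HIS6 (interval of the fold 0.967 to 1.88) and LEU9 (0.779 to 1.49).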

Other observations

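Purine synthesis, which is under Gcn4 and Bas1 control and shares precursors with histidine, was higher in ZGR3. The list was chosen with earlier results of these data known. All 12 genes had a log2 ratio above 0, with a median of 0.25, where 48.0% of all genes tested lay above 0. The counting interval lay above 1 for 9 and below 1 for 0, where 17.9% of all genes tested had an interval above 1. Among the 4062 genes with at least as many reads as the lowest of the 40 members, 51.7% lay above 0. Of those 4062 genes, 22.6% had an interval above 1. ADE17, an enzyme of the last steps to inosine monophosphate, had 2318 reads in ZGR3 and 1339 in ZTW1, 1.75-fold higher in ZGR3 (1.64 to 1.87). Its paralog ADE16 had 2242 reads in ZGR3 and 2083 in ZTW1 (1.09-fold higher, 1.02 to 1.16). ADE5,7, a bifunctional enzyme of the middle of the pathway, had 1903 reads in ZGR3 and 1425 in ZTW1 (1.35-fold higher, 1.26 to 1.45), while ADE4, the first enzyme, had 118 in each. BAS1, the activator, had 186 reads in each library.

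Threonine, serine and asparagine synthesis had a median on the other side of 0, with small differences. Of 11 genes, 4 were above 0 and 7 below, where 2874 of 5532 genes tested lay below 0. Their median log2 ratio was −0.16, and −0.08 relative to neighbours. At least 0.32 apart on the log2 scale were 0 of the 11, against 32.0% of all genes. The interval lay below 1 for 4 and above 1 for 0, where 19.8% of all genes had one below 1. HOM6, homoserine dehydrogenase, had 862 reads in ZGR3 and 1060 in ZTW1 (1.22-fold lower, 1.11 to 1.33). SER33, a phosphoglycerate dehydrogenase, was furthest from 0 at −0.31, from 108 reads in ZGR3 and 137 in ZTW1 (0.614 to 1.03 as a fold).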
